A study of Mus musculus with 28 samples.

Results

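Müller glial cells (MGCs) from Rhod-ko retinas, at 8 weeks of age, were set against MGCs of adult wild-type (WT) retinas over all genes measured. The comparison took 10 of the 28 arrays of the series, 5 Rhod-ko cells (cells 2, 1, 3, 7 and 8) and 5 WT cells (MG1, MG16, MG22, MG15 and MG3), each array carrying the amplified cDNA of 1 cell picked by its shape from papain-dissociated retina. Both genotypes were C57/BL6. Rhod-ko mice are knockouts of a rod-specific gene, their retinas lose rods and then cones, and the cells came from several litters. The labels put the WT animals at over 25 weeks, the methods at over 21 days, and the WT profiles had been made for earlier work of the same laboratory. Genotype, age and round of collection therefore cannot be told apart here. The deleted gene itself was not analysed here, so the genotype labels were not checked by it.

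The MGC is the main glial cell of the retina and spans its whole depth. It takes up glutamate and converts it to glutamine, moves water and potassium through its endfeet, recycles retinoid for cones and carries a filament skeleton of vimentin. In a damaged retina MGCs enter reactive gliosis, a state known for the filament protein GFAP and for stress and inflammatory genes.

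The value of a gene in a cell was the highest signal among its probe sets with a single gene symbol, which gave 18194 genes. The signal is a linear microarray intensity, and a gene is called on at 2000 or more. Group medians of log2 signal, with every value under 1000 set to 1000, were subtracted as Rhod-ko minus WT, so a difference of 1 is 2-fold and where the median of 1 group was below 1000 the difference only bounds that of the medians from below. The labels tie no cell to an animal, which makes each group 1 sample of 5 cells. The fold of 2 is a rule of size and no test between the groups was run. A gene on in 5 of 5 cells has an exact 95% binomial interval of 47.8% to 100% of such cells, and a gene on in 0 of 5 cells one of 0 to 52.2%, which cover counting error only.

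Of the 18194 genes, 1122 (6.17%) were higher by 2-fold or more in the Rhod-ko cells and 931 (5.12%) were lower by as much, while 14593 (80.2%) had both medians at or under the floor. Those 14593 genes could not be called, and the others were 1122 higher, 931 lower and 1548 within 2-fold. The list counts below are to be read beside these counts as well as the shares over all genes. Of the 1122 higher genes 875 had a WT median under the floor, and of the 931 lower genes 573 had a Rhod-ko median under it. With group means in place of medians 1000 genes were higher and 1266 lower. All 5 Rhod-ko cells lay above all 5 WT cells for 127 of the higher genes (0.698% of all genes). All 5 Rhod-ko cells lay below all 5 WT cells for 92 of the lower genes (0.506%). The largest differences without overlap belonged to metallothioneins, ribosomal and respiratory chain genes and genes of stress and lysosome on the higher side. On the lower side they belonged to the growth factor Ptn, membrane and scaffold proteins, RNA-binding proteins and the glial channels Aqp4 and Slc14a1.

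**Figure D1:**
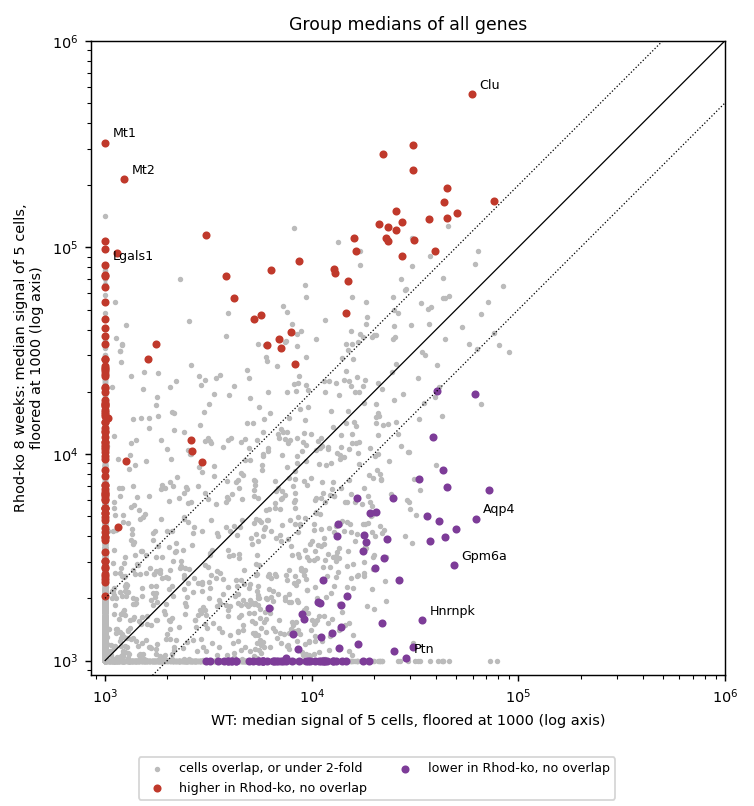
Median signal over 5 Rhod-ko 8 weeks cells (vertical, log axis) against that over 5 WT cells (horizontal, log axis), both floored at 1000, 1 point per gene of 18194. Red points are the 127 genes higher and purple points the 92 genes lower by at least 2-fold in Rhod-ko cells with no overlap of cells, the solid line marks equality and the dotted lines 2-fold.

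Several measures of the arrays moved with the groups, though genes on per cell overlapped. The signal at the 3' end of Gapdh over that at its 5' end, read from the array's control probe sets, was 6.17, 3.95, 7.49, 18.17 and 13.78 in Rhod-ko cells 2, 1, 3, 7 and 8. It was 0.65, 0.79, 0.55, 1.47 and 4.06 in WT cells MG1, MG16, MG22, MG15 and MG3. The same ratio of Actb, in the same order of cells, was 9.36, 0.53, 85.44, 9.16 and 204.98 in the Rhod-ko cells. In the WT cells it was 1.19, 0.29, 0.08, 2.63 and 0.67, so Rhod-ko cell 1 lay within the WT range. The 100 strongest genes held 25.8% to 35.1% of the summed gene signal in Rhod-ko cells and 15.5% to 21.5% in WT cells. Genes on numbered 1970 to 2363 per Rhod-ko cell and 1847 to 2603 per WT cell. At a signal of 500 or more the counts were 4856 to 7560 per Rhod-ko cell. They were 2836 to 3504 in MG1, MG16, MG22 and MG15, but 7106 in MG3. The median signal over genes ran from 201.8 to 390.4 in the Rhod-ko cells. It ran from 81.8 to 175.7 in MG1, MG16, MG22 and MG15, and was 356.9 in MG3. The span of a gene on the genome (GRCm38.p6, introns included) had a median of 5.6 kb over the 127 higher genes without overlap and 32.8 kb over the 92 lower ones, beside 20.3 kb over all genes with a match. Over the 1122 higher and 931 lower genes it was 14 and 31.7 kb. The part of these measures in the differences below was not tested.

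The WT cells were less alike than the Rhod-ko cells. Pearson's r of log2 signals between pairs of cells, over genes and floored at 100, ran from 0.586 to 0.648 among the Rhod-ko cells (10 pairs) and from 0.326 to 0.459 among the WT cells (10 pairs). Between the groups it ran from 0.418 to 0.489 for MG15 and MG3, and from 0.295 to 0.41 for MG1, MG16 and MG22. Many genes placed high in the Rhod-ko median were on in MG15 and MG3 as well. Of the 1122 higher genes, 255 were on in no WT cell, 359 in 1, 351 in 2 and 157 in 3 or more. Among the 351, the 2 cells were MG15 and MG3 for 90 genes (25.6%), against 3.99% to 13.1% for each of the other 9 pairs of WT cells. The lower genes on in exactly 3 WT cells numbered 521, and the 2 cells without signal were MG15 and MG3 for 149 of them (28.6%), against 2.88% to 13.8% for each other pair. For genes of these 2 kinds the WT median is the value of MG1, MG16 or MG22 that lies nearest to MG15 and MG3. The genes whose cells do not overlap at all are therefore given first.

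Metallothioneins, small cysteine-rich proteins that bind zinc and copper, showed the largest differences of all. Mt1 read 141008, 320242, 245928, 435101 and 659741 in Rhod-ko cells 2, 1, 3, 7 and 8, against 79.8, 13.2, 131.8, 4614 and 50199 in WT cells MG1, MG16, MG22, MG15 and MG3. Every Rhod-ko cell was at least 2.81-fold above the highest WT cell, and the medians differed by at least 8.32 (log2). Mt2 read 134326, 213266, 166584, 231409 and 392459 in the Rhod-ko cells, against 17767, 192.9, 337.3, 1237 and 4362 in the WT cells. The lowest Rhod-ko cell was 7.56-fold above the highest WT cell, MG1, and the medians differed by 7.43 (log2). MG1 thus had Mt2 on with Mt1 under the floor, and MG3 held 50199 for Mt1 beside 4362 for Mt2. Mt3, the form best known from brain, read from 40228 to 214906 in the Rhod-ko cells and from 33.1 to 84216 in the WT cells, where MG15 and MG3 were under the floor. Of 15 measured genes of metal handling, 4 were higher, the fourth being the copper chaperone gene Atox1 (difference 1.60, log2, but 0.69 without MG16 or MG15 and 0.90 without MG22), and none was lower. Of the 4 Atox1 probe sets 2 gave the same direction and 1 the opposite.

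Mt1 and Mt2 lie next to each other on chromosome 8, and their promoters are shown because this gene pair led the comparison. The windows run from 250 bases before to 50 bases after an annotated start (RefSeq, GRCm38.p6, plus strand, chr8:94178839-94179138 for Mt1 and chr8:94172368-94172667 for Mt2). The annotated Mt1 gene begins at 94178883, inside its window, so that window was set on a later start. By the earlier start the marked Mt1 sites lie within the gene. Metal response elements are the short sites through which zinc is known to induce both genes, and the 7 letters TGCACNC or TGCGCNC of their core, searched on both strands, are in capitals.
Mt1: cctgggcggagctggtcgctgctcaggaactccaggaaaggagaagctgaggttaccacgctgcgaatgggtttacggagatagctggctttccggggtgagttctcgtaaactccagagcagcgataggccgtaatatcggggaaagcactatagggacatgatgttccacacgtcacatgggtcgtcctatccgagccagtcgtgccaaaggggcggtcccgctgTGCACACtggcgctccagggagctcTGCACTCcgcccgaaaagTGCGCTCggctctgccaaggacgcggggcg
Mt2: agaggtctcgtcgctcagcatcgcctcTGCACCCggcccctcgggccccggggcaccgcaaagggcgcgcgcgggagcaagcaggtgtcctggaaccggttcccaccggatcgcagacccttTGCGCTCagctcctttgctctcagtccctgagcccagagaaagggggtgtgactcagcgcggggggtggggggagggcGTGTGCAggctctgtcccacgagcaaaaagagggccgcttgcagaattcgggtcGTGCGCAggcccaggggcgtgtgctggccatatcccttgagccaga
The Mt1 window held 3 matches and the Mt2 window 4, none overlapping another. Of 32851 promoter windows of this length, 25.7% held at least 1 match, 1.97% at least 3 and 0.517% at least 4. Among the 15 leading higher genes 11 had a window, and 6 of these held a match, with 3 or more in Mt1 and Mt2 alone. Among the 15 leading lower genes 10 had a window, and 5 held a match, with none at 3 or more. Each of these genes was counted by its window with the most matches. The shares above are per window, so they are not a like measure. A match describes letters in a window and says nothing of binding in these cells.

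Other genes of stress and of the cell surface were among the 15 leading higher genes. Lgals1, which encodes the sugar-binding protein galectin-1, read 81697, 167588, 133968, 39754 and 80397 in Rhod-ko cells 2, 1, 3, 7 and 8, against 4771, 33.7, 233.8, 204.2 and 588.6 in the WT cells in the order above. It was on in 5 of 5 Rhod-ko cells and in MG1 alone of the WT cells, and the gap between the nearest cells was 8.33-fold. Nupr1, a small nuclear protein induced by many stresses, read 195356, 170284, 66352, 87301 and 114981 in the Rhod-ko cells and 3073, 35644, 8.1, 7956 and 78.0 in the WT cells. Both MG22 and MG3 were far under the floor for it, while MG16 came within 1.86-fold of the lowest Rhod-ko cell. Pdpn, the membrane glycoprotein podoplanin, read from 48974 to 125596 in the Rhod-ko cells, against 31963 in MG15, 17062 in MG3 and at most 157.1 in the other WT cells. Tpt1, the abundant translationally controlled tumour protein, read from 96510 to 143558 in the Rhod-ko cells, against 61312 in MG15, 54460 in MG3 and at most 34.3 in MG1, MG16 and MG22. For Pdpn and Tpt1 the gap between the nearest cells was 1.53-fold and 1.57-fold, so the difference of medians, at least 6.19 and 6.75 (log2), rests on which 3 WT cells were off. Without MG1, MG16 or MG22, whichever was left out, it was 4.15 for Pdpn and 3.87 for Tpt1.

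Genes on in all 5 Rhod-ko cells and in no WT cell numbered 25. With Ctsd they included Serping1, Atp5l, S100a6, Vamp8, Serpina3n, Tln1, Pdgfrb, Gstp1, Psmb10 and Gna11, a selection made after the values were seen. Ctsd, the lysosomal protease cathepsin D, read 21835, 42705, 37148, 43138 and 15834 in the Rhod-ko cells, against 34.4, 1887, 116.0, 1938 and 630.8 in the WT cells, a gap of 8.17-fold between the nearest cells. Serping1, the inhibitor of the first complement component, read from 7686 to 45671 in the Rhod-ko cells, against at most 457.2 in the WT cells. Tln1, which encodes talin that ties integrins to actin, read from 7561 to 35778 in the Rhod-ko cells, against at most 936.2 in the WT cells. Vamp8, a membrane fusion protein of the endosome, read from 5641 to 36760 in the Rhod-ko cells, against at most 82.1 in the WT cells. The widest gap of any higher gene, 12-fold, was that of Atp5l, a subunit of ATP synthase, at 15519 to 52495 in the Rhod-ko cells and at most 1292 in the WT cells. By the rule that picked them none of these genes had a WT cell on, so the lack of a split among their WT cells is no separate result.

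**Figure D2:**
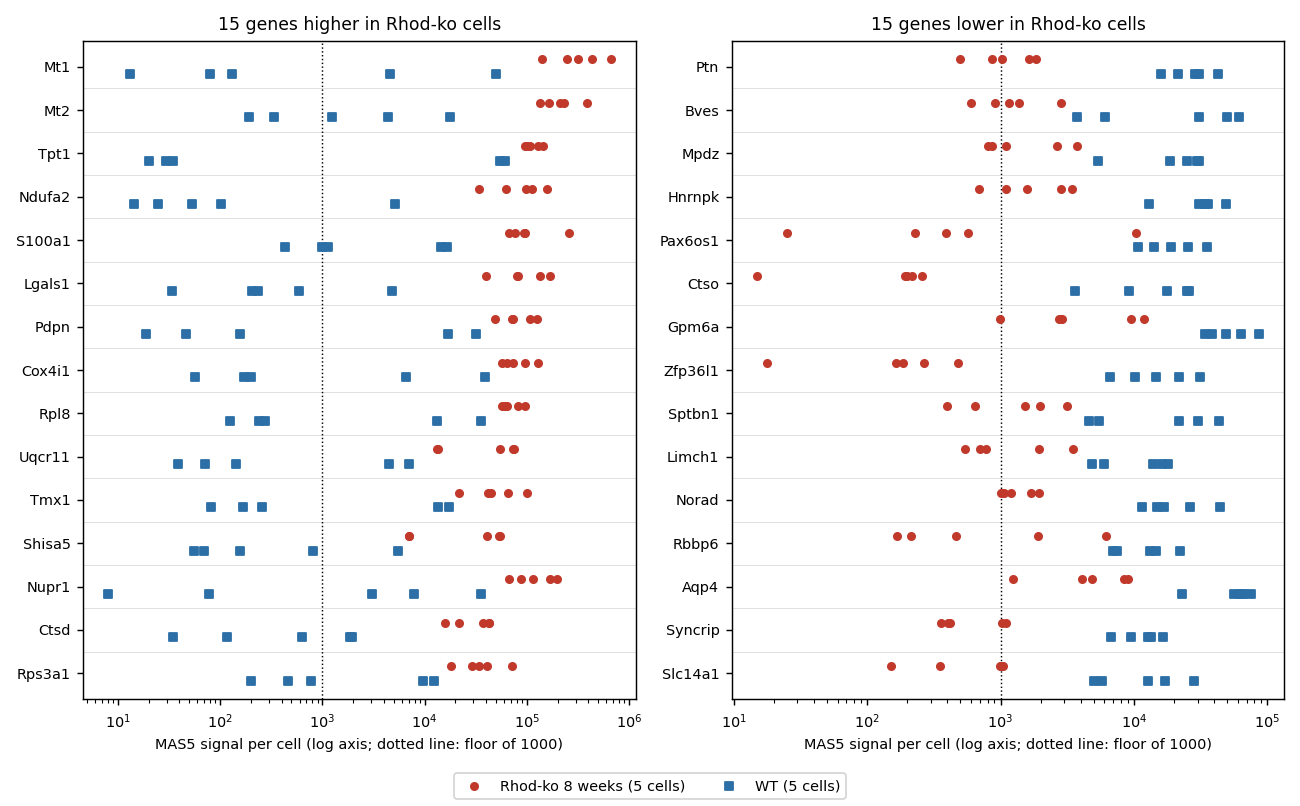
Signal of each cell (horizontal, log axis, dotted line at the floor of 1000) for the 15 genes with the largest higher (left) and the 15 with the largest lower difference of medians (right) among genes whose cells do not overlap. Red circles are the 5 Rhod-ko 8 weeks cells and blue squares, in the row below, the 5 WT cells. On the left several genes, such as Tpt1, have 2 WT cells near the Rhod-ko cells. On the right the rule of no overlap allows no WT cell under the floor, and for Bves 2 WT cells lie near the Rhod-ko cells.

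The leading lower gene was Ptn, which encodes pleiotrophin, a secreted growth factor that binds heparan sulfate. Ptn read 1028, 1630, 1854, 866.7 and 497.1 in Rhod-ko cells 2, 1, 3, 7 and 8, against 42347, 21307, 28699, 30691 and 16028 in WT cells MG1, MG16, MG22, MG15 and MG3. It was on in 0 of 5 Rhod-ko and 5 of 5 WT cells, the gap between the nearest cells was 8.65-fold, and the medians differed by -4.80 (log2). Here the 5 WT cells stood close together, unlike those of Mt1 or Tpt1. By the rule of selection, however, no gene with a WT cell under the floor could be lower without overlap. Zfp36l1, a protein that marks mRNAs for decay, read at most 477.2 in the Rhod-ko cells and from 6581 to 31521 in the WT cells, at least a 6.58-fold gap. Norad, a long non-coding RNA that binds Pumilio proteins, read 1064, 999.9, 1705, 1948 and 1206 in the Rhod-ko cells, against 44454, 14981, 11488, 26374 and 16774 in the WT cells. Ctso, the protease cathepsin O, read at most 258.2 in the Rhod-ko cells and from 3620 to 25650 in the WT cells, opposite in direction to Ctsd. In all, 27 genes were on in 0 of 5 Rhod-ko and 5 of 5 WT cells. With Ptn, Zfp36l1, Norad and Ctso they included the ubiquitin ligase gene Nedd4, the Hedgehog signal transducer Smo and the clock-output factor Hlf, the last 3 again named after their values were seen.

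Membrane and skeleton genes made up much of the rest of the leading lower genes. Gpm6a, a membrane glycoprotein known from neurons, read 11822, 9572, 2899, 2723 and 993.7 in the Rhod-ko cells, against 87028, 38344, 63132, 34199 and 48894 in the WT cells. Sptbn1, a beta-spectrin of the submembrane skeleton, read from 397.0 to 3126 in the Rhod-ko cells, against 4620 to 43130 in the WT cells. Mpdz, a scaffold with many PDZ domains, read from 812.2 to 3770 in the Rhod-ko cells, against 5360 to 30680 in the WT cells. Bves, a Popeye-domain membrane protein, read from 597.3 to 2862 in the Rhod-ko cells, against 30868, 60910 and 50028 in MG1, MG16 and MG22 and 3769 and 6018 in MG15 and MG3, so its nearest cells were only 1.32-fold apart. Limch1, an actin-associated protein, and Rbbp6, a ubiquitin ligase, had gaps of 1.37-fold and 1.13-fold. Pax6os1, a transcript antisense to Pax6, read at most 569.1 in 4 Rhod-ko cells but 10394 in cell 3, next to the lowest WT value of 10640. The labelled cDNA was a PCR product that holds both strands, so signal from Pax6 and from its antisense partner cannot be told apart by strand, and Pax6 itself read from 2841 to 46164 in the Rhod-ko cells and from 639.3 to 17304 in the WT cells.

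Of 29 measured hnRNP and SR proteins, which package and splice pre-mRNA, 9 were lower and 2 higher, beside 5.12% lower and 6.17% higher over all genes, and the list's median was -0.23 (log2) against 0.00 over all genes. The other 18 members were within 2-fold, 9 of them with both medians at or under the floor. The median of 0.00 over all genes is set by the 80.2% with both medians at or under the floor. Among the genes that could be called, 931 were lower, 1122 higher and 1548 within 2-fold. With 1 fixed probe set per gene, the strongest over the 10 cells, the counts were 7 lower and 5 higher. The list's median was then 0.00, as it was after quantile normalization and with the arrays scaled to the same 90th percentile. Hnrnpk read 3424, 1092, 687.4, 2841 and 1569 in the Rhod-ko cells, against 34304, 49343, 30798, 36172 and 12997 in the WT cells. The gap between the nearest cells was 3.80-fold. Hnrnpa2b1 read from 37.1 to 1590 in Rhod-ko and 2462 to 29266 in WT cells, and Hnrnpa0 from 41.5 to 1597 in Rhod-ko and 3689 to 16428 in WT cells, both without overlap. Hnrnpr read at most 2334 in the Rhod-ko cells and from 2317 to 33780 in the WT cells, touching at MG16. Syncrip, a relative of Hnrnpr that is not on the list, read 405.2, 357.2, 1100, 1026 and 415.4 in the Rhod-ko cells and from 6716 to 16485 in the WT cells, and the splicing factor gene Sf3b6 at most 753.1 in Rhod-ko and 6849 to 14946 in WT cells. In all 5 members of the list were lower without overlap and 1, Hnrnpul2, was higher without overlap (difference 2.82, log2). Of 19 Sm, Lsm and snRNP proteins of the spliceosome 4 were higher, led by Snrpd3 (difference 2.58), and 1, Lsm4, was lower (difference -2.82).

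Respiratory chain and ATP synthase genes went mostly the other way. Of 34 measured subunits and assembly factors of complex I, 21 were higher and 2 lower, with a list median of 1.58 (log2). Of 10 cytochrome oxidase genes 6 were higher and none lower, and of 17 ATP synthase genes 14 were higher and 1, Atp5g3, lower, with medians of 1.71 and 2.62. Of 14 genes of complexes II and III 4 were higher and 2 lower. Uqcr11 of complex III read 74688, 73657, 54449, 13495 and 13222 in the Rhod-ko cells, against 142.4, 71.7, 38.8, 4457 and 7054 in the WT cells. Atp5e, another ATP synthase subunit, read 39393, 57589, 41380 and 53853 in Rhod-ko cells 2, 3, 7 and 8 but 2834 in cell 1, against 7240 in MG16 and at most 506.0 in the other WT cells. Atp5c1 read from 8338 to 14134 in the Rhod-ko cells and lay between the WT cells, at 29418 and 34430 in MG15 and MG3 and at most 337.0 in the others. Its difference of 3.38 (log2) was 0.94 without MG1, MG16 or MG22. Of the 75 measured genes of these 4 lists, 10 were higher and 1 lower without overlap. Sdhc and Sdha, both of complex II, had lower medians in the Rhod-ko cells (differences -2.48 and -2.28), with overlapping cells, and with 1 fixed probe set per gene the Sdhc difference was 0.50.

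Of 42 cytosolic ribosomal proteins 18 were higher and 7 lower, 15 of the 18 without overlap, with a list median of 0.45 (log2). After quantile normalization 12 were higher and 7 lower with a median of 0.00, and with the arrays scaled to the same 90th percentile 22 were higher and 5 lower. Rpl8 read 57890, 97075, 64007, 61111 and 81953 in the Rhod-ko cells, against 239.5, 126.3, 274.2, 13123 and 35316 in the WT cells, and its difference of 6.0 (log2) was 4.14 without MG1, MG16 or MG22. Rps3a1 read from 18028 to 71737 in the Rhod-ko cells, against 12260 and 9719 in MG15 and MG3 and at most 780.3 in the other 3 WT cells. Rpl4, in contrast, was high in every cell, at 54719 to 134786 in the Rhod-ko cells and 56592 to 80988 in the WT cells, a difference of 0.43 that turned to -0.97 after quantile normalization. Ribosomal protein genes have many near-identical pseudogenes, and a probe set may read these too. Of 73 mitochondrial ribosomal proteins 17 were higher and 3 lower, with both medians under the floor for 38 of them. Among these Mrpl52 read from 10417 to 165450 in the Rhod-ko cells and from 190.4 to 16428 in the WT cells.

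**Figure D3:**
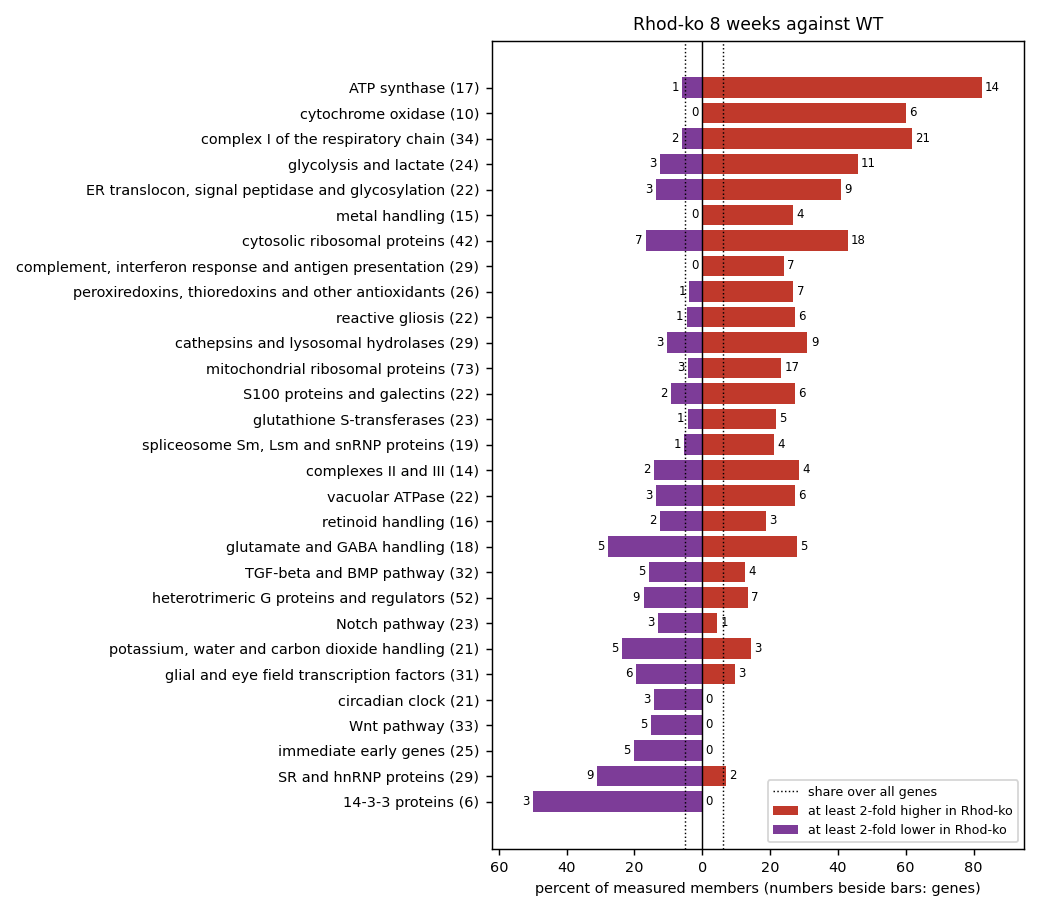
Percent of measured members at least 2-fold higher (red, to the right) and at least 2-fold lower (purple, to the left) in Rhod-ko 8 weeks cells. Only a selection of the 58 function lists is shown, without those of Rab GTPases, coat proteins, ER chaperones and growth factor receptors. The number of genes stands beside each bar and the members measured in brackets. Dotted lines mark the share over all genes, 6.17% higher and 5.12% lower. That share includes the 80.2% of genes with both medians at or under the floor, which could not be called, so lists of expressed genes pass it easily. ATP synthase stands at the top with 14 of 17 higher and 14-3-3 proteins at the bottom with 3 of 6 lower.

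All 20 markers of MGCs were measured, and 14 to 17 were on in each Rhod-ko cell and 13 to 19 in each WT cell. By group medians 5 were higher and 10 lower, with a median of -1.05 (log2) that stood at -0.41 without Rhod-ko cells 7 and 8. Aqp4, the water channel of the endfoot, read 9104, 4866, 8412, 4108 and 1236 in the Rhod-ko cells, against 75747, 22766, 66144, 62361 and 56351 in the WT cells, without overlap. Of its 3 probe sets 1 gave a difference in the same direction and 1 in the opposite direction, so the Aqp4 difference holds for the strongest probe set only. For other leading lower genes too only 1 probe set gave the difference, with none opposite. These were Sptbn1 (of 6), Syncrip (of 5), Mpdz and Limch1 (of 4 each), Norad (of 3), and Zfp36l1, Ctso and Slc14a1 (of 2 each). Sox2, a transcription factor of progenitors and of MGCs, read 1500, 4089, 4760, 7087 and 4720 in the Rhod-ko cells, against 64438, 62414, 37954, 41068 and 11052 in the WT cells. Gpr37, a prosaposin receptor of glia, read from 1031 to 11278 in Rhod-ko and 27708 to 56150 in WT cells, and Hes1, a Notch target, from 109.3 to 2017 in Rhod-ko and 2457 to 36963 in WT cells. Glul, glutamine synthetase, was on in all 10 cells, at 26050 to 69192 in the Rhod-ko cells and 64815 to 280781 in the WT cells (difference -1.52). Slc1a3, the main glutamate transporter of MGCs, read from 6541 to 18230 in the Rhod-ko cells and 3948 to 48565 in the WT cells (difference -1.54).

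Clu, which encodes the secreted chaperone clusterin, was the strongest marker. It read 287791, 549293, 374970, 567346 and 756546 in the Rhod-ko cells, against 146783, 63209, 42981, 58543 and 59537 in the WT cells, and its 4 probe sets all gave a higher median in the Rhod-ko cells. The difference was 3.21 (log2), and 1.65 after quantile normalization. The retinoid-binding protein gene Rlbp1 read from 86012 to 176910 in the Rhod-ko cells, against 109338 in MG15, 149346 in MG3 and at most 146.7 in the other WT cells. Crym, a thyroid hormone binding protein, and Mfge8, a phagocytic bridging protein, had the same split, with MG15 at 21873 and 23066 and MG3 at 92350 and 25841. For these 3 markers the medians differed by 5.59 to 7.14 (log2), and by 3.32 to 4.92 without MG1, MG16 or MG22, although MG3 lay within the Rhod-ko range for all 3 and MG15 for Rlbp1 and Mfge8. Car2, carbonic anhydrase II, was at most 2004 in the Rhod-ko cells and read 15627, 46130 and 49972 in MG22, MG15 and MG3, with MG1 and MG16 under the floor. Vim, Dkk3, Dbi, Abca8a and Kcnj10 differed by less than 2-fold, among them Kcnj10, the main potassium channel of MGCs, at 3284 to 7576 in the Rhod-ko cells and 3021 to 15031 in the WT cells. After quantile normalization the Vim difference was -1.37 (log2).

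**Figure D4:**
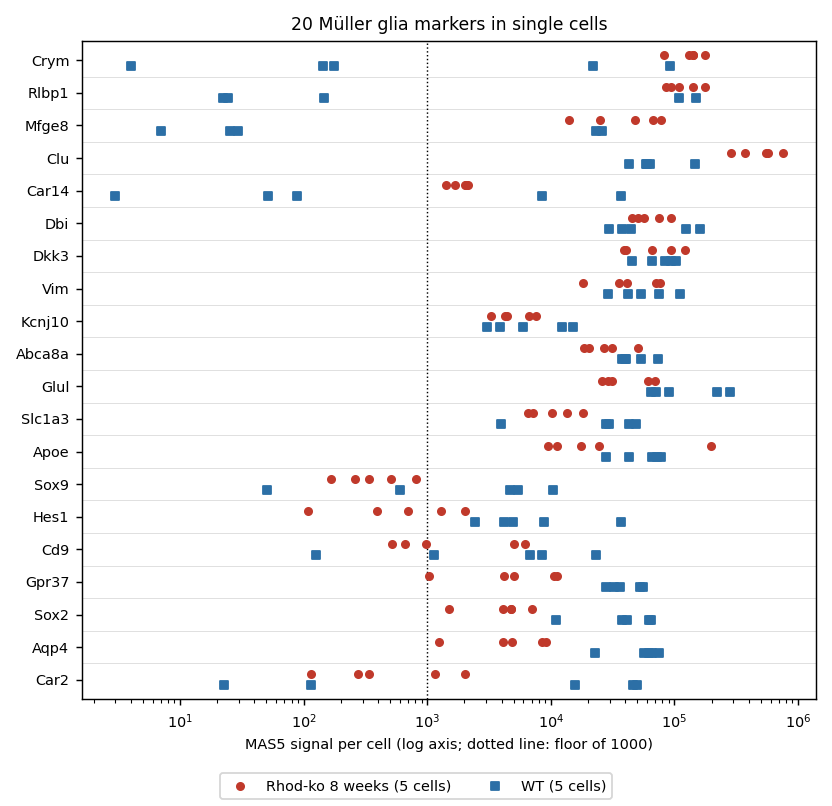
Signal of each cell (horizontal, log axis, dotted line at the floor of 1000) for 20 markers of MGCs, ordered by the difference of medians. Red circles are the 5 Rhod-ko 8 weeks cells and blue squares, in the row below, the 5 WT cells. For Crym, Rlbp1 and Mfge8 at the top 3 WT cells lie under the floor, while Aqp4, Sox2 and Gpr37 near the bottom have all Rhod-ko cells below all WT cells.

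Markers of other retinal cells were mostly off, except rod genes in Rhod-ko cells 7 and 8 and astrocyte markers in Rhod-ko cell 2 and MG16. Of 5 measured astrocyte markers 1 to 3 were on per Rhod-ko cell and 0 to 3 per WT cell. Of 19 rod genes 2, 4 and 4 were on in Rhod-ko cells 2, 1 and 3 and 10 and 11 in cells 7 and 8, against 1 to 4 in each WT cell. The summed signal of the rod list ran from 40976 to 309789 in the Rhod-ko cells and from 15844 to 62815 in the WT cells, with Sag at 54428 and 33269 and Gnat1 at 57659 and 54424 in cells 7 and 8. Sag also reached 61070 in cell 1. In the WT cells Sag was at most 3345 and Gnat1 at most 2323, while Rcvrn was at 55007 in MG1 and 28357 in MG22, beside 92081 and 45343 in Rhod-ko cells 7 and 8. Its median difference of 1.87 turned to -0.55 without cells 7 and 8, and to -0.27 without MG15 or without MG3. By group medians 6 rod genes were higher in the Rhod-ko cells and none lower, and without cells 7 and 8 there were 3. Of 18 markers of microglia and macrophages cell 7 had 6 on, with Csf1r at 118151 and C1qa at 10813, and every other cell had 0 or 1, which in cell 3 was Tyrobp at 22434. The summed signal of that list ran from 3571 to 288594 in the Rhod-ko cells and from 1619 to 12677 in the WT cells. Cone, bipolar, amacrine, horizontal and ganglion cell lists had at most 2 genes on in any cell. Of 14 vascular markers 2 to 4 were on per Rhod-ko cell and 0 to 2 per WT cell. Pdgfrb, a receptor of pericytes, read 3965, 20706, 10984, 7478 and 10567 in the Rhod-ko cells, against at most 364.2 in the WT cells. The part of rod or microglia RNA in other results was not tested. Without cells 7 and 8 the median differences of Mt1, Mt2, Lgals1 and Ptn were 7.94, 7.07, 7.07 and -4.14 (log2). Those of Gpm6a, Mpdz, Aqp4 and Gfap were -2.35, -3.23, -2.89 and 4.32 without these cells, against -4.08, -4.50, -3.68 and 6.06 with them.

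Of 22 genes of reactive gliosis 6 were higher and 1 lower, 2 of them without overlap. Gfap itself read 83415, 69.1, 20038, 66692 and 79269 in Rhod-ko cells 2, 1, 3, 7 and 8, with cell 1 under the floor, and 151.9, 4047, 57.5, 172.3 and 267.0 in the WT cells. Serpina3n, a secreted protease inhibitor of reactive glia, read from 4054 to 25344 in the Rhod-ko cells, cell 1 being lowest, against at most 151.0 in the WT cells. Osmr, the oncostatin M receptor, read from 2189 to 14139 in the Rhod-ko cells and was on in MG15 alone of the WT cells, at 10283. The 1 lower gene, Fos, read at most 103.1 in the Rhod-ko cells, against 90168, 21689, 5010 and 19402 in MG1, MG16, MG22 and MG15 and 374.3 in MG3. Fos encodes a transcription factor that cells make soon after a stimulus. Of 25 immediate early genes 5 were lower and none higher, the others among the 4 largest being the growth-restraining genes Btg2 and Btg1 and the AP-1 factor gene Jund (differences -3.25, -2.42 and -1.58). The Jund difference was -0.40 with group means, -0.62 without Rhod-ko cell 2 or 1, -0.23 without MG16 or MG3 and -0.41 without MG15. Btg1 was lower without overlap, at 523.5 to 4951 in the Rhod-ko cells and 6220 to 10279 in the WT cells.

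Of 29 genes of complement, interferon response and antigen presentation 7 were higher and none lower. Ifitm3, an antiviral membrane protein, read 291673, 76408, 68416 and 112473 in Rhod-ko cells 1, 3, 7 and 8 but 27.0 in cell 2, against 22218 and 5655 in MG1 and MG16 and at most 52.0 in the other WT cells. H2-K1, a class I antigen, read from 4714 to 21524 in the Rhod-ko cells, against 18386 in MG15, 3109 in MG22 and at most 555.0 in the other WT cells. Its partner B2m was also higher (difference 1.47), as were Tapbp, which loads peptides, Gbp2 and Ifit3 (differences 3.51, 2.24 and 2.25). Apart from Serping1, cells of the 2 groups overlapped for each of them.

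Lists of the lysosome and the secretory pathway differed in direction. Of 29 cathepsins and other lysosomal genes 9 were higher and 3 lower, 4 and 1 of them without overlap. Psap, the precursor of the saposins, read from 8339 to 29996 in the Rhod-ko cells and from 116.4 to 7391 in the WT cells. Of 22 genes of the ER translocon, signal peptidase and glycosylation 9 were higher and 3 lower, with a median of 0.86 (log2) that was 0.21 without MG1 and 0.22 without MG3. Dad1, a subunit of the oligosaccharyltransferase, read from 2964 to 115928 in the Rhod-ko cells and from 222.5 to 19617 in the WT cells. Of 22 vacuolar ATPase genes, which acidify the lysosome, 6 were higher and 3 lower. The lists of vesicle traffic had more lower genes, with 5 higher and 9 lower of 49 coat proteins, Arf and SNAREs and 3 higher and 9 lower of 59 Rab GTPases. Of 22 ER chaperones and genes of the unfolded protein response 1 was higher and 2 lower.

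Antioxidant, glutathione and glycolytic lists held more higher than lower genes. Of 26 peroxiredoxins, thioredoxins and other antioxidants 7 were higher and 1 lower. Park7, a protein that guards against oxidative stress, read 36724, 116513, 60092, 56686 and 44147 in the Rhod-ko cells, against 10902, 367.8, 4208, 17513 and 353.1 in the WT cells, and Prdx2 from 18383 to 33272 in Rhod-ko and 13.0 to 14210 in WT cells. Of 23 glutathione S-transferases 5 were higher and 1 lower. Gstp1 read from 5983 to 17036 in the Rhod-ko cells, against at most 1961 in the WT cells. Gsto1 was the lower gene, at most 411.2 in the Rhod-ko cells, with 69737, 6533 and 52902 in MG1, MG16 and MG22 and at most 139.4 in MG15 and MG3. Of 24 genes of glycolysis and lactate 11 were higher and 3 lower. Pkm, pyruvate kinase, read from 12503 to 41254 in the Rhod-ko cells, against 13228 and 4886 in MG15 and MG3 and at most 607.8 in the others. Eno2, the neuronal enolase, was at most 288.1 in the Rhod-ko cells and read 28740, 28757 and 16572 in MG1, MG16 and MG22, against 34.1 and 329.6 in MG15 and MG3. S100a8 had the same WT pattern as Eno2 and Gsto1, at 35517, 36596 and 26612 in MG1, MG16 and MG22 and under the floor in the 7 other cells. Of 22 S100 proteins and galectins, small calcium- and sugar-binding proteins, 6 were higher and 2 lower, 5 of the 6 without overlap.

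Transport of glutamate and ions was mixed. Of 18 genes of glutamate and GABA handling 5 were higher and 5 lower. Slc1a2, the transporter best known from astrocytes, was at most 3830 in the Rhod-ko cells and read 18060, 22697 and 21233 in MG1, MG22 and MG15, against 2148 and 255.5 in MG16 and MG3. Abat, which breaks down GABA, was lower without overlap, at most 827.1 in the Rhod-ko cells, against 1624 to 12146 in the WT cells. Slc6a11, the GABA transporter GAT-3, read 10591, 8225 and 8362 in Rhod-ko cells 2, 1 and 3 and 1063 and 944.5 in cells 7 and 8, against at most 364.9 in the WT cells. Of 21 genes of potassium, water and carbon dioxide handling 3 were higher and 5 lower. With Aqp4 and Car2 the lower ones were the sodium pump subunit genes Atp1b2 and Atp1b3 (differences -2.97 and -2.82) and Dag1, the dystroglycan that anchors endfoot proteins (difference -2.69), while the pump subunit gene Atp1b1 was higher (difference 2.20). The urea transporter Slc14a1, also among the 15 leading lower genes, read at most 1038 in the Rhod-ko cells and from 5024 to 28070 in the WT cells. Of 16 genes of retinoid handling 3 were higher and 2 lower, and Aldh1a1, which makes retinoic acid, read from 11321 to 68310 in the Rhod-ko cells and from 6.5 to 20054 in the WT cells.

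Signalling and transcription factor lists were mixed. Of 29 growth factor and cytokine receptors 6 were higher and 2 lower. Of 33 genes of the Wnt pathway 5 were lower and none higher, among them Ctnnb1, the pathway's central beta-catenin, at 608.7 to 8724 in the Rhod-ko cells and 8075 to 25363 in the WT cells. The receptor gene Fzd5 had a difference of -3.12 (log2), Csnk1a1 of -2.41 and Tcf4 of -2.37. With 1 fixed probe set per gene those of Csnk1a1 and Tcf4 were -0.89 and -0.43, and 3 genes of the list were lower. Of 31 glial and eye field transcription factors 6 were lower and 3 higher, with Nfia at -2.95 and Sox9 at -2.22 on the lower side and Meis1 at 2.53 on the higher, but with the arrays scaled to the same 90th percentile 4 were lower and 4 higher. Of 23 genes of the Notch pathway 3 were lower and 1 higher. Notch2 read from 107.3 to 8612 in the Rhod-ko cells and from 12425 to 23721 in 4 WT cells, with 788.1 in MG15. Of 21 clock genes 3 were lower and none higher, and Hlf read at most 688.3 in the Rhod-ko cells and from 2128 to 18674 in the WT cells. All 6 measured 14-3-3 adaptor proteins gave 3 lower and none higher, Ywhaz being lower without overlap at 1116 to 9014 in Rhod-ko and 9433 to 21945 in WT cells. Its difference of -1.88 (log2) was -0.63 with 1 fixed probe set. Of 52 heterotrimeric G proteins and regulators 7 were higher and 9 lower, with Gnai3 at most 1490 in the Rhod-ko cells and from 4485 to 25665 in the WT cells, and Rgs2 at most 914.3 in Rhod-ko and 2668 to 24338 in WT cells. Of 32 genes of the TGF-beta and BMP pathway 4 were higher and 5 lower. Ltbp3, which stores latent TGF-beta in the matrix, read from 14443 to 58240 in the Rhod-ko cells and from 196.6 to 3866 in the WT cells.

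Few genes were strong everywhere. Only 113 genes were on in all 10 cells, while 518 were on in 5 of 5 Rhod-ko and 234 in 5 of 5 WT cells, and 10624 in none. The 5 genes with the highest lowest signal were Rpl4, Gapdh, Clu, Rpl13a and Pfn2. Pfn2, a profilin of actin turnover, read from 42339 to 63796 in the Rhod-ko cells and from 43145 to 77640 in the WT cells, a difference of -0.39 (log2) that became 0.24 with the arrays scaled to the same 90th percentile and 0.03 with 1 fixed probe set per gene. Gapdh, in contrast, read from 128079 to 240885 in the Rhod-ko cells and from 52853 to 104679 in the WT cells, a difference of 1.13, but after quantile normalization of the 10 arrays the difference was 0.02, and those of Clu and Rpl13a shrank to 1.65 and 0.40 as against 3.21 and 1.54.

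The leading genes were also read in MGCs of Rhod-ko retinas at 25 weeks (5 cells) and of rd1 retinas at 5 weeks, a model with a mutation in rod phosphodiesterase on the FVB strain (4 cells, after averaging 2 nearly identical arrays). These groups use the same WT cells as control, so their values stand only side by side. Mt1 had a median of 320242 in Rhod-ko cells at 8 weeks, 15484 in Rhod-ko cells at 25 weeks, 26484 in rd1 cells at 5 weeks and 131.8 in WT cells. For Lgals1 the medians in that order were 81697, 10550, 374.0 and 233.8, and for Tpt1 they were 107571, 28713, 70878 and 34.3. Of the 15 leading higher genes the median at 25 weeks was below the whole 8-week range for 14, and that of rd1 cells for 13, yet the gene was on by the median in 15 and 14 of them. The strong genes Gapdh, Clu, Rpl13a and Rpl4 also lay below their 8-week ranges in every 25-week cell (at most 42915, 55308, 39976 and 36029). In rd1 cells Gapdh, Clu and Rpl13a did so too (at most 123287, 212112 and 66969), but Rpl4 did not. Pfn2 reached into its 8-week range in both groups. Lying below the 8-week range is thus not particular to the leading genes. Ptn had a median of 1028 in Rhod-ko cells at 8 weeks, 14904 at 25 weeks, 19901 in rd1 cells and 28699 in WT cells. Hnrnpk had 1569, 10395, 13678 and 34304 in the same order, Gpm6a 2899, 21516, 37657 and 48894, and Aqp4 4866, 16079, 25690 and 62361. Of the 15 leading lower genes the median lay above the 8-week range for 9 at 25 weeks and for 10 in rd1 cells. Bves, Mpdz, Pax6os1 and Syncrip stood apart, with medians at 25 weeks of 521.7, 498.0, 41.0 and 105.1, under the floor. The genes were picked for a large difference at 8 weeks, so no course over age can be read from them.

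**Figure D5:**
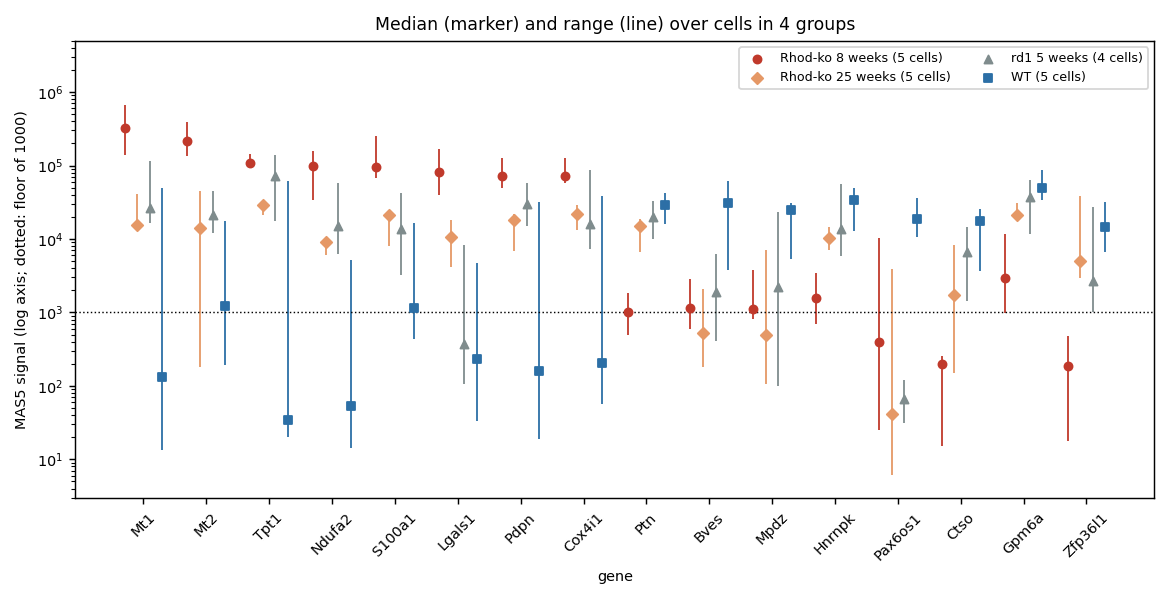
Median (marker) and range over cells (line) of the signal (vertical, log axis, dotted line at the floor of 1000) for the first 8 leading higher and the first 8 leading lower genes in Rhod-ko 8 weeks (red), Rhod-ko 25 weeks (orange), rd1 5 weeks (grey) and WT cells (blue). Mt1 and Mt2 have their highest medians at 8 weeks, and Ptn, Hnrnpk and Gpm6a their lowest.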

How the data were processed

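Single cells were lysed and their RNA reverse transcribed from an oligo dT primer, tailed and amplified by PCR before hybridization to Affymetrix mouse arrays. The deposited values are linear signal intensities that the authors computed with MAS5, and the trimmed mean of each array (2% per tail) was 500. The sources used here give no version of that software, and detection calls were not used. No background step or further normalization was applied.

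Of 45101 probe sets, 34958 carried 1 symbol in the array annotation, 932 several and 9211 none, and the first kind gave 18194 genes. Of these probe sets 34754 were matched to RefSeq by Entrez number. The strongest probe set of a gene stood for it, cell by cell. Signals were floored at 1000, and differences of group medians of log2 signal counted from 1 upward. Groups came from the labels. The number of arrays limits the precision, and intervals are exact binomial.

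The members and the 69 gene lists (11 of markers) were chosen with earlier results of these data known. Named genes are the 15 largest differences each way without overlap, up to 4 leading members of each list, markers on in a cell that stood apart, Gfap, and the 5 with the highest lowest signal, and some others are named as chosen later. Further list members, such as Osmr, B2m, Dag1, Gpr37 and Glul, were named outside this rule. They were not put through the other settings or the closer look gene by gene. The alternatives were floors of 500 and 2000, quantile normalization, group means, 1 fixed probe set for a gene, arrays brought to a common 90th percentile, other thresholds and leaving out cells. Steps were tested on simulated data with normal noise around each gene's mean, without the on and off pattern of these cells. That run checked the code and not how often calls would be wrong here. The work used matplotlib 3.10.9, SciPy 1.17.1, NumPy 2.4.6, pandas 2.3.3 and Python 3.11.15.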

Additional observations from a re-analysis of the deposited data

Results flagged for a closer look

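Within each group of 5 cells the highest or lowest cell was compared with the rest by Dixon's ratio of its gap to the group's range (critical value 0.71), for each named gene with at least 3 cells above the floor and for measures of the arrays. Of 230 groups 14 (6.09%) passed, and chance alone flags about 1 in 20. Among Rhod-ko cells, cell 1 stood high for S100a1 at 256132 (group median 94239) and low for the ATP synthase gene Atp5e at 2834 (median 41380). Cell 2 stood low for Ifitm3 at 27.0 (median 76408) and high for Btg2 at 3742 (median 1075). Cell 8 stood low for the complex I gene Ndufa3 at 987.6 (median 33686), and cell 7 had 6 markers of microglia on, against 0 or 1 in the others. Among WT cells, MG16 stood low for Aqp4 at 22766 (median 62361) and for Mpdz at 5360 (median 25111), and MG15 low for Notch2 at 788.1 (median 12830). MG3 stood high for Rpl13a at 106186 (median 50376) and low for Ctnnb1 at 8075 (median 22719) and Lsm4 at 830.9 (median 9880). On the array of MG3, 7106 genes reached a signal of 500, against a WT median of 3494 and 4856 to 7560 in the Rhod-ko cells. Its 3' to 5' ratio of Gapdh was 4.06, against a WT median of 0.79 and 3.95 to 18.17 in the Rhod-ko cells.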

How the results depend on the processing

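The 30 leading genes kept their direction under all 17 other settings tried, with a difference of at least 2.28 (log2) in size. These genes were picked for no overlap of cells, so another floor, group means or leaving out cells could not reverse them. Only a fixed probe set, quantile normalization and scaling to the same 90th percentile could have reversed a direction, and none of these did. No paired analysis was possible because the cells carry no shared replicate numbers between the groups and the values come from no test. Genes higher numbered 1901 with a floor of 500, 682 with a floor of 2000 and 579 at 4-fold, where lower genes numbered 542. Genes lower without overlap numbered 59 with the arrays scaled to the same 90th percentile, 53 of them among the 92, and genes higher without overlap 219 without Rhod-ko cells 7 and 8, 123 of them among the 127. Leaving out each cell gave 1027 to 1257 higher genes, 902 to 1341 lower genes, and 146 to 181 higher and 92 to 161 lower genes without overlap, since fewer cells overlap less. The last count was 144, 144 and 161 without MG1, MG16 and MG3. Genes on per cell had medians of 3298 in Rhod-ko and 2912 in WT cells at 1000, and 678 and 934 at 10000.

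With a floor of 500 the median difference was 0.49 for mitochondrial ribosomal proteins, 0.16 for antioxidants, 0.38 for reactive gliosis and 0.40 for complement and interferon genes, and with a floor of 2000 it was 0.00 for the ER translocon list. Quantile normalization gave -1.70 for MGC markers and 0.00 for cytosolic ribosomal proteins, which had 1.13 when scaled to the same 90th percentile. Group means gave 0.32 for mitochondrial ribosomal proteins, 0.56 for lysosomal genes, 0.37 for complement and interferon genes, -0.46 for glial and eye field factors, and -0.07 for both immediate early and Notch genes. Without cells 7 and 8 MGC markers stood at -0.41. Leaving out 1 cell moved the ER translocon list between 0.21 and 1.06, glial and eye field factors between -0.30 and 0.00 and mitochondrial ribosomal proteins between 0.00 and 0.04. Of the named genes put through these settings that differed by 2-fold or more, 3 changed sign, as did Rpl4, Pfn2, Kcnj10 and Vim, which differed by less. Sdhc had 0.50 with 1 fixed probe set per gene, and Rcvrn had -0.55 without cells 7 and 8 and -0.27 to 3.41 with 1 cell left out. The glial gene Aldh1l1 (-1.45 with all cells) ran from -2.11 to 0.11 with 1 cell left out. The cause was not tested. Signals under the floor have no order here, which limits what can be said of weak genes.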
